A study of Mus musculus with 10 samples.

Results

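Hair cells, the mechanosensory receptors of the inner ear, are specified and kept alive by a small set of transcription factors. The 9 genes described here, Atoh1, Pou4f3, Gfi1, Lhx3, Barhl1, Insm1, Rfx1, Rfx2 and Rfx3, were picked by symbol from the 48709 genes that each expression table lists, and each was found once. They were followed in supporting cells, the non-sensory neighbors of hair cells, which were isolated by fluorescence-activated sorting from cultured utricles of Lfng-EGFP mice of age P21. The fluorescent reporter follows Lfng, so the sort takes whatever cells carry it. Explants received 0.1% DMSO alone or 10 µM TRULI, an inhibitor of the Lats kinases of the Hippo pathway, in 0.1% DMSO. Cells were collected after 5 days, or after a further 5 days without any compound. The sample labels give 3 control and 3 TRULI libraries at 5 days, and 2 control and 2 TRULI libraries after withdrawal.

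The condition of 4 of the 10 libraries is in doubt. Each table was deposited under a name that states a condition. That name and the sample label agree for the 3 controls at 5 days, for both libraries of TRULI followed by withdrawal, and for 1 TRULI library at 5 days (labelled replicate 3, named replicate 1), which is called the undisputed TRULI library below. A first disputed pair was labelled TRULI at 5 days (replicates 1 and 2) but named control after withdrawal (replicates 1 and 2). A second disputed pair was labelled control after withdrawal (replicates 1 and 2) but named TRULI at 5 days (replicates 2 and 3). Each value is therefore given library by library, and each test by label, which is the main grouping, and by name. Ccn2 and Mki67, the treatment markers given below, lay with the names. By label, the TRULI group at 5 days thus joins libraries that differ widely in both genes.

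Marker genes were read in the same libraries. Ccn2, a gene that Yap and Tead activate, stood at 15.6, 8.88 and 11.7 CPM (counts scaled to library size with TMM) in the controls at 5 days, at 711 in the undisputed TRULI library, at 2.03 and 6.47 in the pair labelled TRULI but named control after withdrawal, at 488 and 481 in the pair labelled control after withdrawal but named TRULI, and at 15.3 and 3.66 after TRULI withdrawal. Mki67, a gene of cycling cells, followed the same split, with 0, 1.64 and 0.744 CPM in the controls, 26.8 in the undisputed TRULI library, 0.470 and 0 in the pair labelled TRULI, 126 and 56.2 in the pair named TRULI, and 0 in both withdrawal libraries. On both genes the pair labelled TRULI lay with the controls and the pair named TRULI with the undisputed TRULI library. Lfng, the basis of the sort, was at 563, 516 and 506 CPM in the controls, 310.2 in the undisputed TRULI library, 548 and 289.8 in the pair named TRULI, 63.9 and 21.2 in the pair labelled TRULI, and 100.1 and 66.1 after TRULI withdrawal. Sox2, a supporting-cell factor, ranged less, between 31.5 and 89.5 CPM. The mitochondrial ribosomal RNA mt-Rnr2 took 13.0 to 26.4% of all counts in the 6 libraries named for 5 days and 1.45 to 2.53% in the 4 named for withdrawal. Total counts ran from 2463872 to 6255149 per library, so that 3 counts, taken as the floor of detection, equal 0.470 to 1.20 CPM.

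Transcripts of differentiated hair cells were present in the sorted cells of every condition. Otof, needed for transmitter release from hair cells, measured 82.7, 32.5 and 63.2 CPM in the controls at 5 days, 225 in the undisputed TRULI library, 172 and 49.3 in the pair named TRULI, 3.29 and 11.5 in the pair labelled TRULI, and 445 and 51.9 after TRULI withdrawal. Myo7a, a hair-bundle myosin, went from 14.0, 14.5 and 9.42 CPM in the controls to 49.4 in the undisputed TRULI library, with 38.0 and 14.1 in the pair named TRULI, 1.72 and 0 in the pair labelled TRULI, and 19.6 and 1.02 after withdrawal. Tmc1, a subunit of the transduction channel, spanned 7.56 to 93.1 CPM, with its highest value in the first TRULI withdrawal library. These cells are a sorted bulk sample, in which fewer cells of a type and less RNA per cell cannot be told apart. The part that hair cells within the sort play in the values below was not tested.

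As background, Atoh1 encodes the basic helix-loop-helix factor that starts hair-cell differentiation, and it binds E-box sequences together with E proteins. Pou4f3 and Gfi1 act after it: the POU-domain factor Pou4f3 is required for hair cells to mature and survive, and the zinc-finger repressor Gfi1 keeps other programs, including neuronal ones, silent in them. Lhx3 and Barhl1 are homeodomain factors of differentiating hair cells, Insm1 is a zinc-finger factor that marks nascent outer hair cells of the cochlea, and the Rfx proteins switch on ciliary genes in many tissues.

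The 9 genes differed widely in level. Per kilobase of effective transcript length, the median over the 10 libraries was 16.6 CPM for Pou4f3, 5.13 for Gfi1, 3.99 for Atoh1, 3.85 for Rfx3, 2.60 for Rfx1, 2.17 for Lhx3, 1.29 for Rfx2 and 0.829 for Barhl1. Apart from Insm1, neighbors in this order overlapped in their ranges over libraries. Pou4f3 spanned 2.70 to 81.5 CPM per kilobase and Gfi1 0.149 to 41.0, whereas Rfx3 kept within 1.19 to 6.57. Insm1 had 0 counts in all 10 libraries, which allows at most 0.470 to 1.20 CPM at the floor of each library and gives no information on lower levels. In CPM, the highest library stood over the lowest by a factor of 30.2 for Pou4f3, 14.2 for Atoh1, 8.90 for Rfx2, 6.83 for Rfx1 and 3.33 for Rfx3. For Gfi1 and Lhx3 the lowest library held 1 and 2 counts, against 378 and 225 in the highest, which gives ratios of 276 (95% counting interval 49.3 to 10944) and 54.4 (14.9 to 452). Confidence intervals and floors here cover counting error only.

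**Figure D1:**
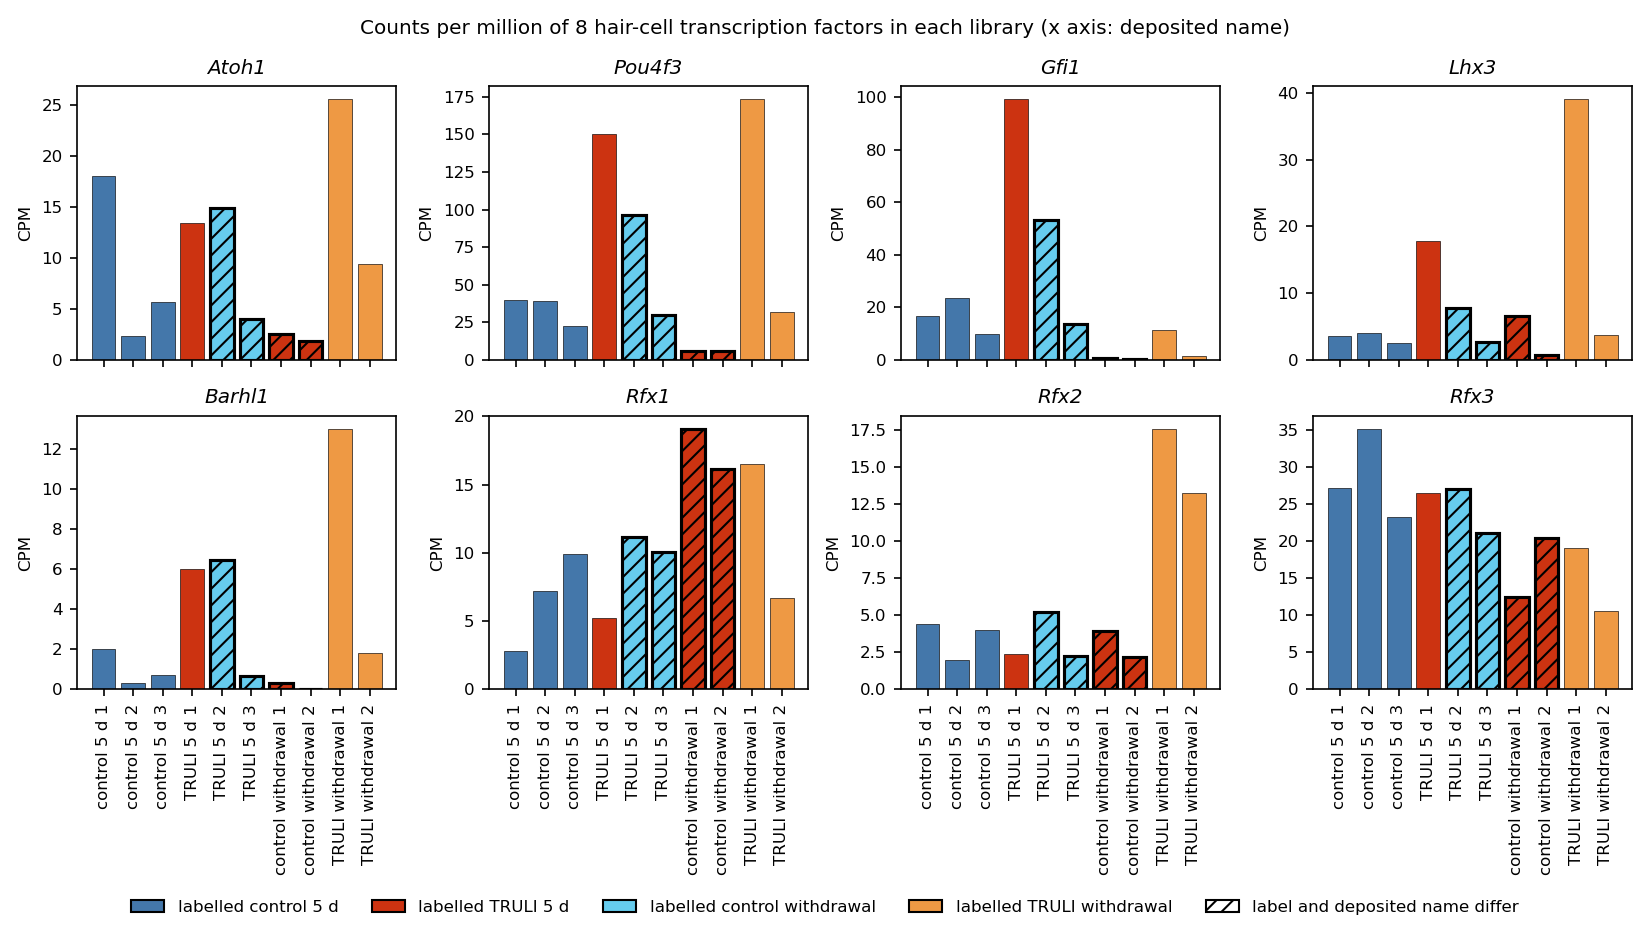
Level of the 8 detected transcription factors, in CPM on linear axes that start at 0, with 1 bar per library, ordered by deposited name, coloured by sample label and hatched where label and name differ. Gfi1 is lowest in the pair labelled TRULI but named control after withdrawal, at 0.783 and 0.359 CPM, and Rfx2 is highest in the 2 TRULI withdrawal libraries, at 17.6 and 13.2 CPM.

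Atoh1 (ENSMUSG00000073043, chr6:64729125-64731245, plus strand, GRCm38) stood at 18.0, 2.30 and 5.70 CPM in the controls at 5 days, 13.4 in the undisputed TRULI library, 14.9 and 4.03 in the pair named TRULI, 2.50 and 1.80 in the pair labelled TRULI, and 25.5 and 9.36 after TRULI withdrawal. The first control library was higher than every library but the first of TRULI withdrawal, so the groups at 5 days overlapped under both groupings. These levels rested on 5 to 147 counts per library.

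Pou4f3 (ENSMUSG00000024497, chr18:42394539-42397249, plus strand) was the best-covered of the fate factors, with 16 to 999 counts. It measured 39.6, 39.1 and 22.3 CPM in the controls, 150.2 in the undisputed TRULI library, 96.1 and 29.6 in the pair named TRULI, 6.10 and 5.75 in the pair labelled TRULI, and 174 and 31.5 after TRULI withdrawal. Both libraries labelled TRULI but named control after withdrawal were below every other library, and the lower library of the pair named TRULI and of the TRULI withdrawal pair fell within the range of the controls.

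Gfi1 (ENSMUSG00000029275, chr5:107716657-107726036, minus strand) had the largest factor between its highest and lowest library among the genes counted in every library. Its levels were 16.8, 23.3 and 9.92 CPM in the controls, 99.3 in the undisputed TRULI library, 53.2 and 13.7 in the pair named TRULI, 0.783 and 0.359 in the pair labelled TRULI, and 11.1 and 1.22 after TRULI withdrawal. The pair labelled TRULI held 5 counts and 1 count of Gfi1. A gene on the opposite strand, A430072P03Rik, overlaps Gfi1, and since the counting was not stated to use strand, reads of both cannot be told apart where they overlap.

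The RefSeq promoter windows used here (GRCm38.p6) cover 10 start sites of 7 of the 9 genes, and promoters of Insm1 and Pou4f3 were not analysed here. In the 250 bases before each start, both strands were searched for 5 motifs. GGAATG is a site of Tead proteins. CAGCTG is an E-box that Atoh1 and related proteins bind, and CAGATG a second E-box of the same class. GTTGCC is an arm of the palindromic Rfx site, and AAATCA the core that Gfi1 binds. Bases of the gene's own exons were left out of the windows as shown. The motifs do not overlap one another in the windows shown. Matches were found at 5 start sites of 4 genes, Gfi1, Lhx3, Barhl1 and Rfx2. The same letters occurred in 12.6, 13.0, 14.4, 10.4 and 12.4%, respectively, of all 32851 RefSeq windows. These windows were taken at the full 250 bases, with exons left in. Each share is for a single motif, whereas the 5 start sites were counted for a match to any of the 5. The share of all windows that match any of the 5 was not determined. Whether the 5 start sites are more than other windows would give was therefore not tested. A match by itself is thus a description and marks no bound site. The windows of the fate factors with a Tead match are shown because the treatment acts on Yap and Tead. In the second Gfi1 start site (chr5:107724344-107724593, minus strand, written 5′ to 3′ along the gene) the capitals mark the Tead letters, which begin 226 bases before the start. In the second Barhl1 start site (chr2:28912496-28912745, minus strand) the capitals mark, in order, the Tead letters on the reverse strand, the Gfi1 core and the E-box, which begin 96, 30 and 15 bases before the start.
Gfi1: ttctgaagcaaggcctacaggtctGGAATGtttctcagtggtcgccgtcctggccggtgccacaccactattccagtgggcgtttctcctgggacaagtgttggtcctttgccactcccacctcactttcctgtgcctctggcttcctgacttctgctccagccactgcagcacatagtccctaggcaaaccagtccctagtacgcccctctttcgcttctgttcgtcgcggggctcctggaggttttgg
Barhl1: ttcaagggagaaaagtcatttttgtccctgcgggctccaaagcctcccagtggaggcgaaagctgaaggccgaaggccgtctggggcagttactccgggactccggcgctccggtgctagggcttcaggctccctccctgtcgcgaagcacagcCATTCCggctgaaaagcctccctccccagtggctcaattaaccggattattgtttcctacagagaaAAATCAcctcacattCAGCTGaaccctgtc

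Gfi1 did not keep a fixed proportion to Pou4f3. Of the counts of the 2 genes together, Gfi1 took 29.8, 37.4 and 30.8% in the controls at 5 days, 39.8% in the undisputed TRULI library (exact 95% interval 36.7 to 43.0), and 35.6 and 31.6% in the pair named TRULI. It took 11.4% (3.79 to 24.6) and 5.88% (0.149 to 28.7) in the pair labelled TRULI, and 6.02% (4.67 to 7.62) and 3.73% (1.38 to 7.93) after TRULI withdrawal. In the 6 libraries named for 5 days the count of Gfi1 was thus 0.424 to 0.661 of that of Pou4f3, and in the 4 named for withdrawal it was 0.0387 to 0.128. The proportions of the 2 sets did not overlap, although the counting intervals of the pair labelled TRULI reached into those of the controls. Grouped by label, the proportions overlapped, at 0.0625 to 0.661 for 5 days and 0.0387 to 0.553 for withdrawal. The share of mt-Rnr2 given above separated the same 6 libraries from the same 4, and its part in the shift was not tested.

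**Figure D2:**
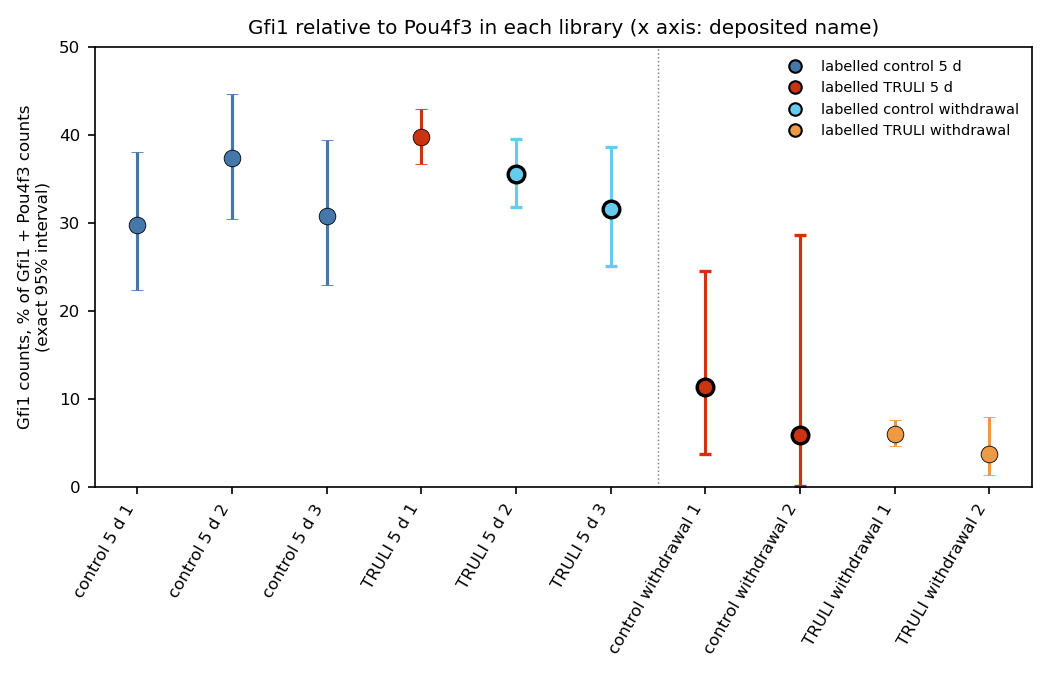
Gfi1 as a percentage of the summed counts of Gfi1 and Pou4f3 in each of the 10 libraries, with exact 95% binomial intervals that cover counting error only, ordered by deposited name and coloured by sample label, with heavy outlines where label and name differ. The 6 libraries named for 5 days lie between 29.8 and 39.8%, and the 4 named for withdrawal between 3.73 and 11.4%.

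Lhx3 (ENSMUSG00000026934, chr2:26200212-26208289, minus strand) measured 3.60, 3.95 and 2.48 CPM in the controls, 17.9 in the undisputed TRULI library, 7.70 and 2.69 in the pair named TRULI, 6.57 and 0.718 in the pair labelled TRULI, and 39.1 and 3.66 after TRULI withdrawal. Replicates of every group but the controls at 5 days lay far apart, and the gene Gm27196 overlaps Lhx3 on the other strand.

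Barhl1 (ENSMUSG00000026805, chr2:28907679-28916668, minus strand) was near the floor in the controls, at 2.00, 0.329 and 0.744 CPM. It reached 6.04 CPM in the undisputed TRULI library, 6.46 and 0.672 in the pair named TRULI, 0.313 and 0 in the pair labelled TRULI, and 13.0 and 1.83 after TRULI withdrawal. The highest library held 75 counts and the pair labelled TRULI 2 and 0.

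The first library of TRULI withdrawal exceeded the second in all 8 detected genes. The factor was 10.7 for Lhx3, 9.11 for Gfi1, 7.12 for Barhl1, 5.51 for Pou4f3 and 2.73 for Atoh1, and 2.46 for Rfx1, 1.81 for Rfx3 and 1.33 for Rfx2. The summed level of 24 structural and functional hair-cell genes was 1424 CPM in the first library and 543 in the second, a factor of 2.62. Whether the 2 differ in the number of hair cells was not tested.

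Of the Rfx factors, Rfx3 (ENSMUSG00000040929, chr19:27761721-28011166, minus strand) was at 27.2, 35.2 and 23.3 CPM in the controls, 26.5 in the undisputed TRULI library, 27.1 and 21.1 in the pair named TRULI, 12.5 and 20.5 in the pair labelled TRULI, and 19.1 and 10.6 after TRULI withdrawal. Rfx1 (ENSMUSG00000031706, chr8:84066834-84096992, plus strand, overlapped by C330011M18Rik on the other strand) ran at 2.80, 7.23 and 9.92 CPM in the controls, 5.25 in the undisputed TRULI library, 11.2 and 10.1 in the pair named TRULI, 19.1 and 16.2 in the pair labelled TRULI, and 16.5 and 6.71 after TRULI withdrawal. The 3 highest values of Rfx1 thus came from the pair labelled TRULI and the first withdrawal library. Rfx3 had the smallest factor between its highest and lowest library, at 3.33, though not the smallest span in CPM.

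Rfx2 (ENSMUSG00000024206, chr17:56775897-56831013, minus strand) was higher in the TRULI withdrawal libraries than in the others. It measured 4.40, 1.97 and 3.97 CPM in the controls, 2.36 in the undisputed TRULI library, 5.22 and 2.24 in the pair named TRULI, 3.91 and 2.16 in the pair labelled TRULI, and 17.6 and 13.2 after TRULI withdrawal. The 2 withdrawal libraries, on whose condition label and name agree, were above all 8 others, which spanned 1.97 to 5.22 CPM. The share of all genes that separate these libraries in this way was not determined. A different comparison, of these 2 libraries with the controls at 5 days alone, called 11% of all genes tested higher. It does not measure how common a separation from all 8 others is. The window before its start (chr17:56831014-56831258, minus strand, 245 bases, 5 bases of its own exon left out) is shown with the Rfx letters in capitals, 116 bases before the start, since Rfx2 was called in comparisons below.
Rfx2: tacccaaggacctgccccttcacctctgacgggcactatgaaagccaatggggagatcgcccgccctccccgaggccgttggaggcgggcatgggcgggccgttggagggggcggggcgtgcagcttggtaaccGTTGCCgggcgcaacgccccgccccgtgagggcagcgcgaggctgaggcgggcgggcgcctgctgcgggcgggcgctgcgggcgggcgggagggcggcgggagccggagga

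To ask whether TRULI altered these genes after 5 days, the treated and control libraries were compared with edgeR's quasi-likelihood test over all protein-coding genes that passed a filter on low counts. Calls required a log2 fold change beyond 1 together with a p below 0.05 after Benjamini-Hochberg adjustment. By label, 7 of the 9 genes were tested, Barhl1 and Insm1 falling to the filter. None was called, with 0 at an unadjusted p under 0.05 and 0 by DESeq2. Of all 10580 genes tested, edgeR called 0.00945% higher and 0% lower, and 13.7% passed 0.05 before adjustment, while DESeq2 called 1.86% higher and 0.605% lower. The log2 fold changes were 0.71 ± 1.07 (SE) for Pou4f3, 1.04 ± 1.44 for Gfi1, -0.52 ± 0.96 for Atoh1 and 1.36 ± 0.94 for Lhx3, and the SE of the first 3 exceeded the change. Leaving out labelled TRULI replicate 3, the undisputed library, turned Gfi1 to -4.68 and Pou4f3 to -2.50, both called lower, where 8.14% of genes were called lower and 10.5% higher. The libraries left are those of the contrast between controls by name given below, so this is the same fit.

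By name, the same 7 genes were tested at 5 days and 0 were called by edgeR, against a background of 2.1% of genes called higher and 0.992% lower. Before adjustment 3 of the 7 passed 0.05, as did 16.4% of all genes. The log2 fold change was 1.48 ± 0.48 for Pou4f3 (edgeR adjusted p = 0.143), 1.76 ± 0.58 for Gfi1 (0.15) and 1.51 ± 0.65 for Lhx3 (0.279), none past the threshold. Atoh1 changed by 0.36 ± 0.69 and the Rfx genes by -0.17 to 0.41. Under these names, same-numbered libraries deviated together, and with the replicate number as a block, Gfi1 (1.46 ± 0.34, edgeR adjusted p = 0.0192) and Pou4f3 (1.26 ± 0.26, adjusted p = 0.0111) were called higher, against 4.21% of all genes. DESeq2 called the same 2, at adjusted p = 0.0213 and 0.0249, against 3.46% of genes higher and 1.68% lower. With only the undisputed TRULI library against the 3 controls, a fit chosen after seeing the data in which the lone library is assumed to vary like the controls, Gfi1 (2.59 ± 0.41, edgeR adjusted p = 0.0194) and Pou4f3 (2.17 ± 0.35, adjusted p = 0.0210) were called higher, against 0.812%. Without named TRULI replicate 3, the lower of the disputed pair, both were likewise called by name, Gfi1 at 2.22 and Pou4f3 at 1.89, against 2.21% of genes.

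After withdrawal, the question was whether treated and control cells differed once the compound was gone. The study itself reported Atoh1, Pou4f3, Gfi1 and Lhx3 as up-regulated after withdrawal, from these libraries, so their values here are no independent test. By label none of them was called, and Gfi1 lay in the opposite direction to that report. By name, with values given below, Atoh1, Pou4f3 and Lhx3 lay in its direction, and only Pou4f3 was called, by DESeq2 alone. Gfi1 fell to the filter by name, and its summed counts gave a ratio of TRULI over control of 10.0. Most of those TRULI counts came from the first withdrawal library. By label, 8 genes were tested and 0 were called by edgeR (2 at an unadjusted p under 0.05, 0 by DESeq2), where edgeR called 0.942% of genes higher and 1.03% lower, DESeq2 called 7.13 and 5.18%, and 24.6% passed 0.05 before adjustment. Gfi1 stood at -2.39 ± 1.03 (edgeR adjusted p = 0.201), Rfx2 at 2.06 ± 0.72 (0.137), Lhx3 at 2.07 ± 1.08 (0.275), Atoh1 at 0.91 ± 0.81 (0.521) and Pou4f3 at 0.73 ± 0.81 (0.607). The 2 groups of 2 did not overlap for Rfx2, which was higher, nor for Gfi1 and Rfx3, which were lower, as held for 27.5% of genes upward and 30.6% downward. Calls turned on single libraries: without the second TRULI withdrawal library Lhx3 (2.91), Pou4f3 (1.46) and Rfx2 (2.23) were called higher, against 9.95% of genes, and without the first Gfi1 was called lower at -4.76, against 13%. In both fits the lone treated library is assumed to vary like the 2 controls. With the replicate block, Gfi1 was called lower at -2.75 ± 0.66 (edgeR adjusted p = 0.0181), against 4.51% of genes. Same-numbered libraries of this contrast correlated at 0.22 in their deviations from the group means. In groups of 2, however, the deviations mirror each other, so every pair gives the same size of r. The replicate numbers are thus not shown to pair these libraries, and the block leaves little replication between groups of 2.

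Grouped by name, the contrast after withdrawal gave other values, and Gfi1 and Barhl1 fell to the filter. Here 6 genes passed the filter, and edgeR called 0 of them and 0% of the 10845 genes tested, with an unadjusted p under 0.05 for 3 of the 6 and for 4.52% of all genes. Log2 fold changes were 4.14 ± 0.85 for Pou4f3 (edgeR adjusted p = 0.938), 3.01 ± 0.92 for Atoh1, 2.52 ± 1.25 for Lhx3 and 2.33 ± 0.85 for Rfx2. DESeq2 called Pou4f3 alone, at 4.14 (adjusted p = 0.000107), against 0.36% of genes higher and 0.0645% lower. Atoh1, Pou4f3 and Rfx2 did not overlap between groups, as was the case for 14.6% of genes. The summed counts of Gfi1 were 70 with TRULI and 6 without, a depth-adjusted ratio of 10.0 (95% counting interval 4.38 to 28.3), and those of Barhl1 were 84 and 2, a ratio of 36.1 (9.69 to 303). By label the same ratios were 0.203 (0.153 to 0.264) for Gfi1 and 2.30 (1.49 to 3.65) for Barhl1. Most of these treated counts, 64 of Gfi1 and 75 of Barhl1, came from the first withdrawal library.

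**Figure D3:**
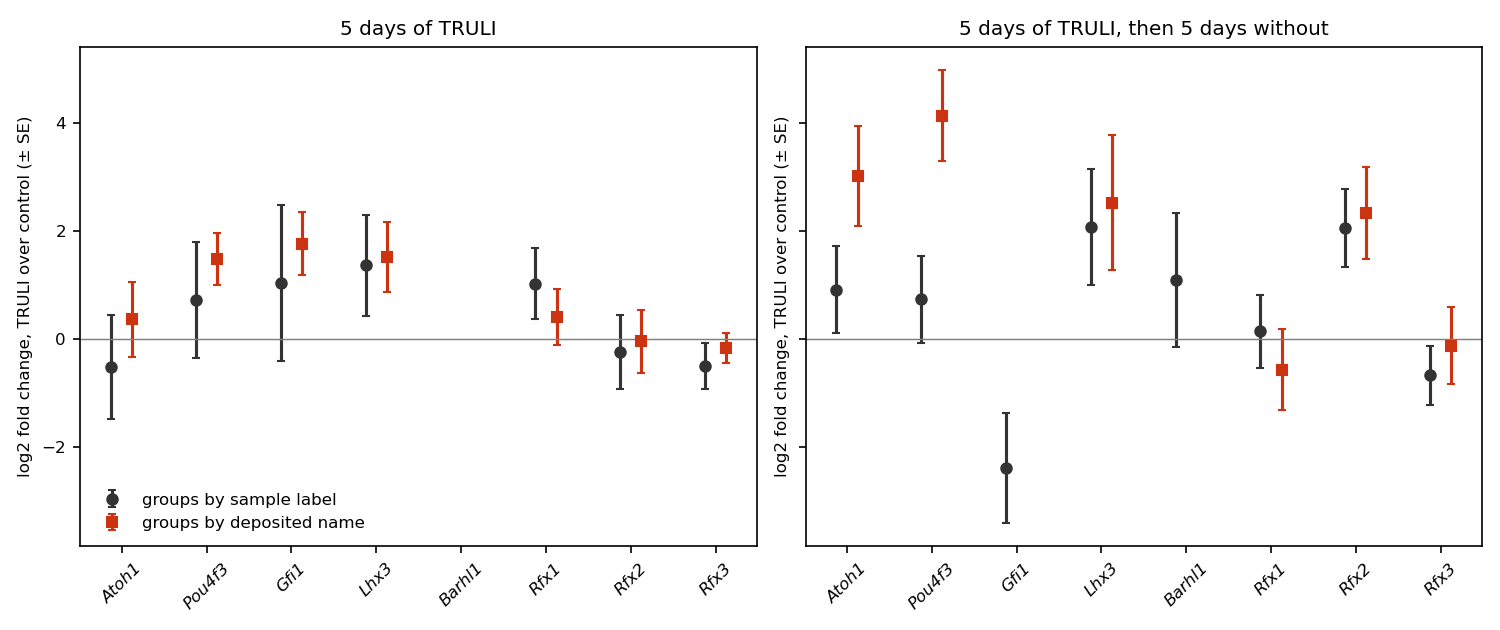
Log2 fold change of TRULI over control with its SE as bars, at 5 days (left) and after withdrawal (right), for the tested transcription factors, grouped by sample label (circles) and by deposited name (squares). After withdrawal Gfi1 lies at -2.39 by label and has no value by name, and Pou4f3 lies at 0.73 by label and 4.14 by name.

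The remaining contrasts followed the 2 treatments through withdrawal. For TRULI withdrawn against TRULI present, edgeR called 0 of 8 genes by label (1 at an unadjusted p under 0.05, as 3.03% of genes, 0 by DESeq2, and 0% of genes called in each direction, or 0.035% higher and 0% lower by DESeq2), with Rfx2 at 2.44 ± 0.77 and Gfi1 at -2.41 ± 1.95. By name it called Rfx2 alone, higher at 2.26 ± 0.60 (edgeR adjusted p = 0.0411), against 8.23% of genes higher and 5.99% lower, with 33.3% passing 0.05 before adjustment. DESeq2 called Rfx2 higher, against 11.6%, and Gfi1 lower, against 10.5%. The edgeR call of Rfx2 was lost without any 1 of the 3 libraries named TRULI at 5 days or the first withdrawal library, at log2 fold changes of 2.05 to 2.74 and adjusted p between 0.0664 and 0.137, and with the replicate block, at 0.147, where 5.94% of genes were called higher. Without 1 of the libraries named TRULI at 5 days, the share of all genes called higher was 0.942, 0.0262 and 4.56%, and without the first withdrawal library 11%. Gfi1 stood at -3.10 ± 1.01 by name (adjusted p = 0.0715), and was called lower with the block at -4.05 ± 0.68 (edgeR adjusted p = 0.00582), against 3.29%. The replicate numbers are not shown to pair these libraries, since same-numbered ones correlated at 0.10 and -0.16 in their deviations. The block also leaves little replication in this fit.

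Between the controls of the 2 times, 7 genes were tested. By label, edgeR called 0 (0 at an unadjusted p under 0.05 against 15% of genes, 0 by DESeq2), where 2.07% of genes were called higher and 0.467% lower, or 2.9 and 1.29% by DESeq2, and Gfi1 and Pou4f3 stood at 1.02 and 0.92. By name, Gfi1 (-4.68 ± 0.75, edgeR adjusted p = 0.00878) and Pou4f3 (-2.50 ± 0.47, adjusted p = 0.0130) were called lower, against 8.14% of genes lower and 10.5% higher, with 36.6% passing 0.05 before adjustment. Without control replicate 2 at 5 days neither was called, at -4.37 and -2.38, where 0% of genes were called lower, and without replicate 1 Pou4f3 was not, at -2.38, where 1.37% were. Atoh1 stood at -1.96 ± 0.92 (0.156), Rfx1 at 1.37 ± 0.57 (0.115) and Lhx3 at 0.19.

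The test of whether the TRULI effect differed between 5 days and withdrawal called 0 genes of the 9 and 0% of all genes under either grouping with edgeR. Before adjustment 1 gene passed 0.05 by label, Rfx2 at 2.31 ± 1.01, as did 6.65% of all genes, and 3 by name, Pou4f3 at 2.65 ± 0.99, Atoh1 at 2.65 and Rfx2 at 2.37, as did 9.31%. DESeq2 called 0 of the 9 under both, and of all genes 0.101% higher and 0.243% lower by label, and 0.336% and 0.327% by name.

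A comparison that uses only libraries on which label and name agree was added after seeing the data: TRULI followed by withdrawal, n = 2, against the controls at 5 days, n = 3. It joins the compound, its withdrawal and the longer culture, which cannot be told apart. Of 7 genes tested, Rfx2 was called higher at 2.15 ± 0.57 (edgeR adjusted p = 0.0325), with a mean of 15.4 CPM against 3.45, where 11% of all genes were called higher and 8.76% lower and 36.9% passed 0.05 before adjustment. DESeq2 called Rfx2, Lhx3 and Pou4f3 higher, against 13.1%. Lhx3 stood at 2.68 ± 0.86 (adjusted p = 0.0570), Pou4f3 at 1.61 ± 0.61 (0.0896), Atoh1 at 1.03, Gfi1 at -1.42 ± 0.83 (0.248) and Rfx3 at -0.94 ± 0.44 (0.153). Without any 1 control library the call of Rfx2 was lost, at 1.90 to 2.34 (edgeR adjusted p = 0.0813 to 0.128), where the share of all genes called higher was 3.43, 1.75 and 4.42%, as it was with the replicate block (0.0881), which called 7.6% of genes higher. Without the second withdrawal library 4 genes were called higher, against 13% of genes. Without the first, Gfi1 (-3.68) and Rfx3 (-1.38) were called lower, against 13.5%, and Pou4f3 stood at -0.036. The 1 treated library left is assumed in these fits to vary like the controls.

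The genes around these factors were described from lists. There were 17 partners and antagonists of Atoh1, which include the E proteins, the inhibitory Id proteins and the Notch-driven Hes and Hey repressors. Of these, edgeR called 0 at 5 days under both groupings. Before adjustment 2 passed 0.05 by label and 3 by name, as did 13.7 and 16.4% of all genes. DESeq2 called 0 by label and 2 lower by name, against 1.68%. With the replicate block by name 2 were called lower, Hes1 at -1.13 and Hes5 at -1.98, against 1.94% of genes. In the 5 libraries of the added comparison 2 were called higher and 5 lower, against 11 and 8.76% of all genes. Id1, which sequesters the E proteins, was at 61.1, 162 and 253 CPM in the controls at 5 days and at 826 and 597 after TRULI withdrawal, a log2 fold change of 2.16. Its levels were 87.2 CPM in the undisputed TRULI library, 158 and 362 in the pair named TRULI, and 701 and 658 in the pair labelled TRULI, so the 4 libraries named for withdrawal were the highest. Hes5 went the other way, from 26.4, 8.55 and 13.9 CPM in the controls through 2.36 in the undisputed TRULI library and 7.20 and 2.46 in the pair named TRULI, to 0 and 0 in the pair labelled TRULI and 0 and 0.203 after withdrawal. Gata3, a zinc-finger factor of the prosensory domain, rose by 2.38 on the log2 scale in the added comparison. It was low in the controls, at 1.20, 1.97 and 1.74 CPM on 3, 6 and 7 counts, and at 8.52 and 8.95 CPM after TRULI withdrawal. It stood at 3.41 CPM in the undisputed TRULI library, 2.73 and 4.26 in the pair named TRULI and 5.17 and 6.82 in the pair labelled TRULI. The 4 libraries named for withdrawal were the highest. Id1 and Gata3 are shown as genes called in the added comparison, so high values in its TRULI withdrawal libraries follow from that choice. The share of all genes with this order of libraries was not determined.

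Of the 24 structural and functional hair-cell genes, 20 were tested at 5 days. By label 0 were called by edgeR, with 2 at an unadjusted p under 0.05, against 13.7% of all genes. DESeq2 called 1, where it called 1.86% of genes higher and 0.605% lower. Of the 20, 14 had a positive change, and the median log2 fold change was 0.35, against 0.04 over all genes. By name 1 was called, Espn, an actin-bundling protein of stereocilia, at 2.70 (edgeR adjusted p = 0.0423), where 2.1% of genes were called higher. DESeq2 called 6, against 3.46% of genes higher and 1.68% lower. By name 18 were positive and the median was 0.83, against 0.02. With the replicate block by name edgeR called 7 of the 20 higher, against 4.21% of genes. After withdrawal edgeR called 0 under both groupings. Before adjustment 2 passed 0.05 by label and 9 by name, against 24.6 and 4.52% of all genes. DESeq2 called 1 lower by label, against 5.18%, and 3 higher by name, against 0.36%. The median was 0.29 for 22 genes by label and 2.42 for 16 by name, against 0.01 for all genes in each. In the controls of the 2 times by name, 11 of 20 were called lower, against 8.14% of genes, and the median was -2.96, with Calb2 at -5.12 and Loxhd1 at -5.76, against -0.05. Its summed level was 530 to 775 CPM in the controls at 5 days, 653 to 1319 in the libraries named TRULI, 504 to 604 in the pair labelled TRULI, and 543 to 1424 after TRULI withdrawal.

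The lists bearing on the Rfx factors held no call at 5 days. Of 7 other Rfx-family genes and cofactors 4 were tested, and 0 were called by edgeR or DESeq2 in any of the 6 contrasts under either grouping. Before adjustment 1 passed 0.05, between the controls by label, where 15% of all genes did. Of 16 intraflagellar transport genes, which build cilia and which Rfx factors control in other tissues, edgeR and DESeq2 called 0 at 5 days. Before adjustment 2 passed 0.05 by label and 1 by name, against 13.7 and 16.4% of all genes. In the added comparison, in which Rfx2 was called, 2 were called higher and 2 lower, against 11 and 8.76% of all genes, and the median was -0.51 against 0.01 over all genes.

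Of 10 other hair-cell regulators 6 were tested at 5 days and 0 were called by edgeR, with a median log2 fold change of 0.49 by label and 0.64 by name. Before adjustment 0 passed 0.05 by label and 2 by name, against 13.7 and 16.4% of all genes. DESeq2 called 0 by label and 1 by name, where it called 3.46% of genes higher and 1.68% lower. One of them, Rbm24, an RNA-binding protein that regulates splicing in hair cells, was at 21.6, 15.5 and 10.2 CPM in the controls, 88.2 in the undisputed TRULI library, 40.0 and 14.1 in the pair named TRULI, 2.97 and 1.08 in the pair labelled TRULI, and 54.0 and 11.4 after TRULI withdrawal. With the replicate block by name it was called higher at 5 days, at 1.36 ± 0.30 (edgeR adjusted p = 0.0141), the 1 call among the 6, against 4.21% of all genes. By name it was called lower between the controls of the 2 times, at -2.85, as was the splicing regulator Srrm4 at -4.47, where 8.14% of all genes were called lower.

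Other cell types were checked by their markers. The 12 supporting-cell genes summed to 10751 to 15948 CPM in the controls at 5 days, 10117 to 12538 in the libraries named TRULI, 4355 to 7412 in the pair labelled TRULI and 5559 to 6199 after withdrawal. Sums for 8 neuron markers were 24.8, 26.0 and 12.4 CPM in the controls, 89.0 in the undisputed TRULI library, 74.8 and 12.8 in the pair named TRULI, 11.3 and 16.2 in the pair labelled TRULI, and 74.6 and 21.4 after TRULI withdrawal. Pou4f and Lhx factors also act in neurons, and the 3 libraries with the highest neuron sums are the 3 in which Pou4f3 was highest. The same 3 also had the highest sums of the 24 structural and functional hair-cell genes. These were 1319 CPM in the undisputed TRULI library, 1056 in the first of the pair named TRULI and 1424 in the first withdrawal library. Schwann-cell markers summed to 48.0 to 138 CPM, mesenchymal markers to 18.4 to 96.3, macrophage markers to 0.869 to 18.1, melanocyte markers to 0.359 to 14.1, neuroendocrine markers to 0.313 to 20.5 and endothelial markers to 0 to 2.95. The part of any of these in the values of the fate factors was not tested.

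The joint pattern of Atoh1, Pou4f3, Gfi1, Lhx3 and Barhl1 was taken as the mean of their standardized log2 CPM in each library. Over the 10 libraries, 11910 other protein-coding genes were ranked by Pearson's r with it. The 10 highest were Adamts19 (r = 0.972), Rbm24 (0.966), Clrn1 (0.965), Snap25 (0.963), Irx2 (0.952), Tnc (0.951), Xkr6 (0.948), Insc (0.943), Cbln4 (0.943) and Slk (0.941). Clrn1 encodes a hair-bundle protein, Snap25 a component of the synaptic vesicle fusion machinery that is also on the list of neuron markers, and Tnc an extracellular matrix glycoprotein. Structural hair-cell genes fell at varied ranks, with Strc at 23 (0.925), Slc17a8 at 31 (0.914), Otof at 33 (0.911), Myo7a at 170 (0.830) and Tmc1 at 529 (0.705), while Pcdh15 (-0.39) and Whrn (-0.60) ran against it. All 10 points share libraries, depth and scaling between genes, and the correlations are descriptions.

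Among the 9 genes themselves, r over the 10 libraries was 0.93 between Atoh1 and Barhl1, 0.91 between Pou4f3 and Barhl1, 0.85 between Lhx3 and Barhl1, 0.82 between Atoh1 and Pou4f3, and 0.81 between Pou4f3 and Gfi1. Rfx2 was set apart from Gfi1 (-0.17) and Rfx3 (-0.53), and stood at 0.65 with Atoh1. Gfi1 and Rfx3 gave 0.74.

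**Figure D4:**
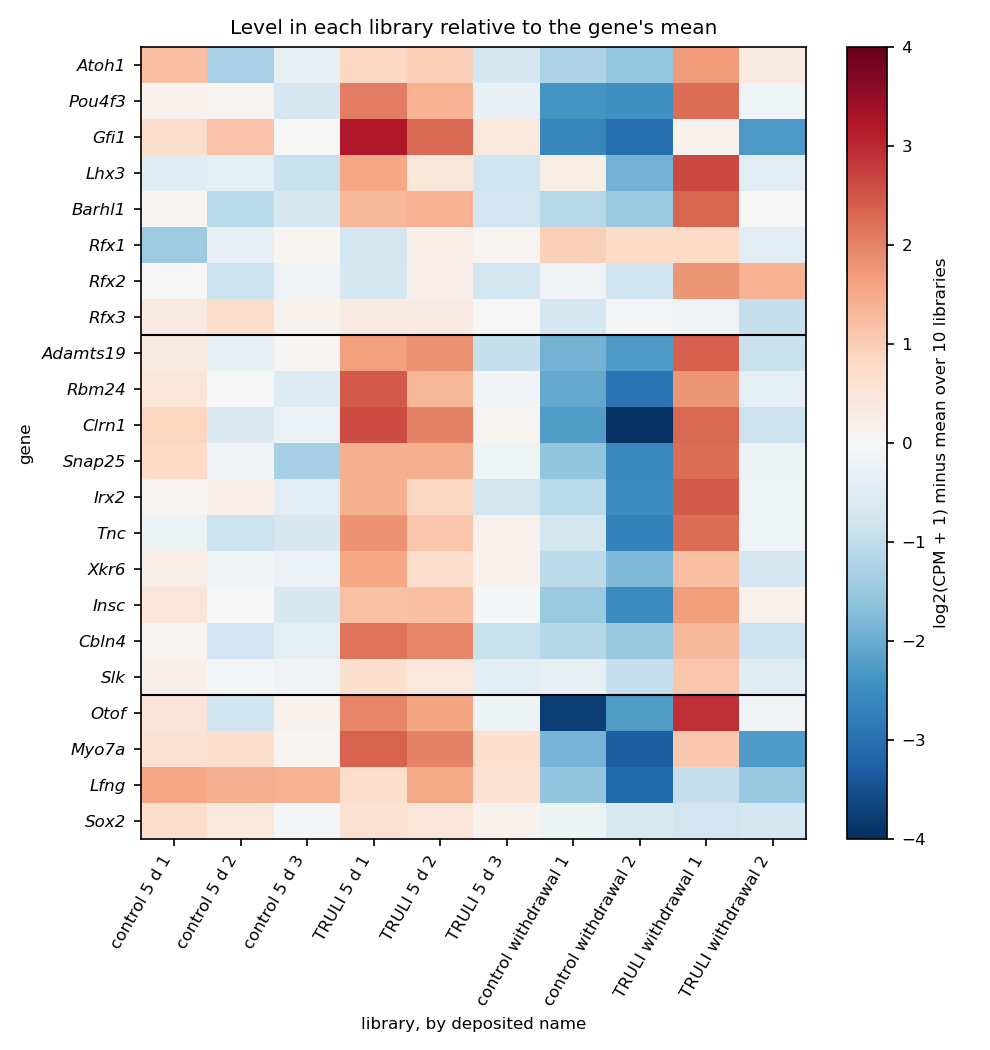
Log2(CPM + 1) minus its mean over the 10 libraries, as a colour scale, for the 8 detected transcription factors (top), the 10 genes most like the joint pattern of Atoh1, Pou4f3, Gfi1, Lhx3 and Barhl1 (middle) and 4 markers (bottom), with libraries in columns by deposited name. The undisputed TRULI library (TRULI 5 d 1) and the first library of TRULI withdrawal are above the mean for all 10 middle genes, and the columns named control withdrawal, which were labelled TRULI, are below it.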

How the data were processed

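RNA of sorted supporting cells was measured by sequencing in 10 libraries. Reads had been aligned by the authors to GRCm38 using STAR. The program that made the deposited expected counts, which are not normalized, is not given in the sources used here. The labels name a polyA-enriched TruSeq library, the study's methods a QIAseq FX single-cell kit. The study calls its replicates biological, but the labels tie no library to an animal, so p-values measure the spread between these samples. The sample tables listed 48709 genes, of which 48349 matched GENCODE M21.

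Expected counts were rounded, scaled by TMM and given as CPM. Genes passing filterByExpr were tested with edgeR 4.0.16 in R 4.3.3 (quasi-likelihood test, Benjamini-Hochberg adjustment over protein-coding genes, adjusted p under 0.05 and log2 fold change beyond 1), and with DESeq2 1.42.0 as an alternative. SE is that of the log2 fold change, derived from the test statistic. Each test was run grouped by sample label and by deposited name, without each library in turn, with DESeq2 size factors, without the filter, over every biotype, in 1 fit of all libraries and with the replicate number as a block. The scripts were tested on simulated data. By name, same-numbered libraries at 5 days deviated together (correlations of 0.36, 0.18 and 0.29), so blocked values are given for that contrast, although the pairing comes from the numbers alone; by label they did not (-0.13, 0.05 and -0.17).

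The genes and lists were chosen with earlier results of these data known. Genes named are the 9 factors, the 10 genes most like their joint pattern (prior count 2 in log2 CPM), up to 4 called genes from each list by lowest p, and defining markers. Hes5, Id1, Gata3 and Rbm24 are shown in full as such called genes.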

Additional observations from a re-analysis of the deposited data

How the results depend on the processing

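Counts of 5 or fewer per library limit Gfi1 and Barhl1 in the pair labelled TRULI, Atoh1 and Lhx3 in its second library, and Barhl1 in the controls at 5 days and the third library named TRULI, and groups of 2 and 3 libraries limit every contrast. Under the alternatives run, 651 of the log2 fold changes of single genes kept their direction and their side of the threshold, 34 passed it and 13 fell short of it in the same direction, and 56 changed sign. Of the counts of genes called, 233 stayed within 1.5 times the reported one and 39 did not. The cause was not tested.

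Alternatives by name with another tool, scaling, filter or gene set, the fits restricted to libraries on which label and name agree, and the added comparison were chosen after seeing the data. At 5 days, the restricted fit called 2 genes higher and gave 0.66 for Atoh1 and -0.36 for Rfx1. Grouping by name turned Atoh1 to 0.36, and by name DESeq2 and the fit without the filter on low counts each called 2 higher. After withdrawal, 1 gene was called higher and 1 lower by label without the filter, and 1 higher by name with DESeq2 or without the filter. Rfx1 turned to -0.58 by name. For TRULI withdrawn against TRULI present, grouping by name called 1 higher and turned Rfx1 to 0.42, and the restricted fit gave -0.52 for Pou4f3 and 1.17 for Rfx1. By name 1 was called lower with DESeq2, without the filter or with all 10 libraries in 1 fit. For the controls of the 2 times, grouping by name called 2 lower and turned Atoh1 to -1.96, Pou4f3 to -2.50, Gfi1 to -4.68 and Rfx2 to -0.16. For the difference between the TRULI effects, 1 was called lower by label and 1 higher by name without the filter. In the added comparison 3 were called higher with DESeq2, 4 without the filter and 0 with all 10 libraries in 1 fit.

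With the replicate number as a block, 5-day values by label were -1.19 for Pou4f3 and -2.51 for Gfi1, and by name 2 genes were called higher. The block called 1 lower after withdrawal by label. For TRULI withdrawn against TRULI present it called 1 higher by label, Pou4f3, against 0.122% of genes, and gave 3.29 for Gfi1. By name it called 0 higher and 1 lower, with -0.64 for Pou4f3 and -0.24 for Barhl1. It gave -0.52 for Lhx3 between the controls by name and called 0 in the added comparison, and it moved no other count of calls. Outside the 5-day contrast by name the numbers are not shown to pair the libraries.

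Leaving out 1 library at a time, counts ran from 0 to 2 lower by label and 0 to 2 higher by name at 5 days, 0 to 3 higher and 0 to 1 lower by label after withdrawal, 0 to 1 higher and 0 to 1 lower by name for TRULI withdrawn against present, 0 to 2 lower by name between the controls, and 0 to 4 higher and 0 to 2 lower in the added comparison. The log2 fold changes of some genes changed sign when a library was left out. For TRULI against control at 5 days by label, it gave Atoh1 -1.96 to 0.57, Gfi1 -4.68 to 1.62 and Pou4f3 -2.50 to 1.25. For TRULI against control at 5 days by name, it gave Atoh1 -0.11 to 1.40 and Rfx2 -0.55 to 0.15. For TRULI against control after withdrawal by label, it gave Atoh1 -0.032 to 2.09, Barhl1 -0.96 to 3.40, Lhx3 -0.52 to 2.96, Pou4f3 -1.01 to 1.77 and Rfx1 -0.68 to 0.62. For TRULI against control after withdrawal by name, it gave Lhx3 -0.039 to 4.85 and Rfx3 -0.64 to 0.27. For TRULI withdrawn against TRULI present by label, it gave Barhl1 -0.19 to 2.66, Lhx3 -1.18 to 2.52, Pou4f3 -0.76 to 4.14 and Rfx1 -1.01 to 0.32. For TRULI withdrawn against TRULI present by name, it gave Atoh1 -0.16 to 1.24, Barhl1 -1.20 to 1.57, Lhx3 -1.31 to 2.07, Pou4f3 -1.50 to 0.91 and Rfx1 -0.36 to 0.89. For the controls of the 2 times by label, it gave Atoh1 -1.04 to 1.22, Gfi1 -0.25 to 1.69, Lhx3 -0.27 to 1.21, Pou4f3 -0.15 to 1.53 and Rfx2 -0.58 to 0.60. For the controls of the 2 times by name, it gave Lhx3 -2.11 to 1.002 and Rfx2 -0.63 to 0.20. For the added comparison, it gave Pou4f3 -0.036 to 2.35.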
